A study of Homo sapiens with 3 samples.

Results

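The splicing factor and hnRNP genes make up 68 of the 19775 human genes that had a probe set of their own on the Affymetrix array, and 201 of its 54675 probe sets. They were taken by symbol: genes beginning with HNRNP or SNRP, the numbered SRSF, SF3A, SF3B, U2AF and PRPF genes, and SF1, TRA2A, TRA2B, SRRM1 and SRRM2, with pseudogenes and antisense genes left out. Expression was measured in SupB15-MR cells (2 arrays) and SupB15 cells (1 array). SupB15 is a B-precursor acute lymphoblastic leukemia line, labelled drug sensitive. SupB15-MR are its multidrug resistant subclones, raised, as the study describes it, by exposing SupB15 cells to mitoxantrone in medium conditioned by the bone marrow stromal line HS-5 (CM), followed by drug-free culture for months. Both kinds of cells were grown for the arrays in normal RPMI1640 medium with serum. The labels call the SupB15-MR arrays biological replicates, and the description of the second names the subclone MR5. SupB15 had no replicate, so every p-value measures only the spread between the SupB15-MR arrays, and a change of culture cannot be told apart from a change of cell.

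Splicing removes introns from pre-mRNA in the spliceosome, which is built from small nuclear ribonucleoproteins (snRNPs). Most snRNPs carry a ring of Sm proteins on their RNA, while that of U6 carries a ring of LSm proteins. The U1 snRNP recognises the start of an intron, while SF1, U2AF and the U2 snRNP recognise its end, and the PRPF proteins belong to the particles that then join and to the catalytic core. SR proteins mostly promote the use of an exon and hnRNPs often oppose it, and both families bind pre-mRNA beside the splice sites. Many of these genes are themselves alternatively spliced, so that probe sets of 1 gene can read different transcripts, and which transcript each probe set reads was not analysed here.

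Differences are given as SupB15-MR mean minus SupB15 on the log2 scale, where 1 is a 2-fold difference. A probe set was called where limma, fitted over all probe sets kept, gave an adjusted p of at most 0.05 and the difference was at least 2-fold. The leading probe set of a gene is the one with the highest mean of the 2 group means. RNA was measured in bulk, so fewer cells of a kind and less RNA per cell cannot be told apart.

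The arrays differed beyond these genes. The medians of all probe sets were 5.27 and 5.28 in SupB15-MR and 5.08 in SupB15, a shift of 0.19. Both SupB15-MR arrays held the same value for 42.7% of all probe sets, and for 68 of the 201 member probe sets. The 3′ minus 5′ control probe sets of ACTB differed by 2.59 and 2.43 in SupB15-MR and by 0.80 in SupB15, those of GAPDH by -0.09 and -0.11 in SupB15-MR and by 0.10 in SupB15, and the 18S rRNA controls had medians of 14.0 and 13.9 in SupB15-MR and 6.49 in SupB15. The part of these control differences in the results was not tested. Of 9 measured precursor B markers, all lay above the filter value in both cell types, and 2, VPREB1 and IGLL1 of the surrogate light chain, fell in SupB15-MR. None of the 6 bone marrow stromal markers was called, though THY1 differed by -3.22 and DCN by -1.10, and the rest by -0.15 to 0.10. Among 4 T cell and 4 myeloid markers CD3E fell and LYZ rose. Also not called, though beyond 2-fold, were the precursor B markers EBF1 (-1.50) and RAG1 (2.03) and the myeloid markers MPO (1.57) and CSF1R (-2.29).

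In SupB15-MR, splicing genes went both ways, with more probe sets higher than lower. Of 198 member probe sets tested with limma, 40 rose (20.2%, against 13.1% of all probe sets tested) and 20 fell (10.1%, against 9.71%), while 138 were not called. Counted without a test, 47 of the 201 were at least 2-fold higher in both SupB15-MR arrays (23.4%, against 15.4% of all probe sets) and 27 at least 2-fold lower (13.4%, against 12.6%). Of the 60 called, 18 had the same value in both SupB15-MR arrays, which gives the smallest adjusted p of the fit, while 15 that were at least 2-fold apart in both arrays were not called. The median difference over the member probe sets was 0.16, against 0 over all probe sets, and -0.03 once each array was centred on its median. On centred arrays limma called 40 member probe sets higher (20.2%, against 14.2% of all) and 29 lower (14.6%, against 16.9%). On leading probe sets 11 genes rose (16.2%, against 10.6% of all genes) and 8 fell (11.8%, against 9.81%). Of the 68 differences, 37 were positive and 31 negative, against 8957 positive and 8358 negative over all genes. On centred arrays the split of the calls turned round, with 6 genes called higher (8.82%, against 10.8%) and 14 lower (20.6%, against 17.3%). The 5 genes whose rise on the leading probe set was then under 2-fold were SRSF1, SRSF8, SNRPD3, HNRNPLL and HNRNPA2B1, and the 6 then called lower besides were SNRPB, SF3A2, SNRPA, SNRPC, PRPF40B and SRSF11.

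**Figure D1:**
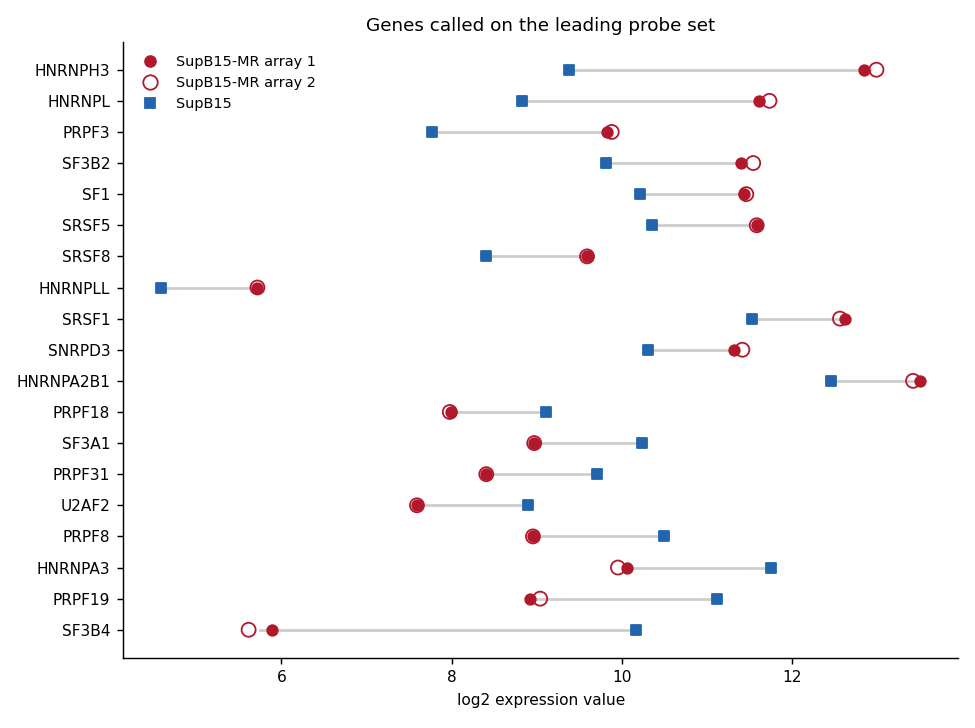
Log2 expression values of the 19 genes called on the leading probe set, with a filled and an open red circle for the SupB15-MR arrays, a blue square for SupB15 and a grey line joining the SupB15-MR mean to SupB15. HNRNPH3 had the largest rise (3.54) and SF3B4 the largest fall (-4.41), and in every gene shown both SupB15-MR values lay on 1 side of SupB15.

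The 4 promoters below belong to genes with some of the largest called differences, SF3B4 and SNRPB, which fell, and HNRNPL and HNRNPH3, which rose. Each run holds the 250 bases before the gene start (RefSeq, GRCh38.p14), written 5′ to 3′ on the strand of the gene. Capitals mark matches, on either strand, to the motifs searched, which were CCGGAAG for ETS factors, GCGCATGC for NRF1, CCAAT for NFY, GGGCGG for SP1, TATAAA for the TATA box and TGACGTCA for the CRE. The genes were picked after their values were seen.
SF3B4, chr1:149927804-149928053, minus strand: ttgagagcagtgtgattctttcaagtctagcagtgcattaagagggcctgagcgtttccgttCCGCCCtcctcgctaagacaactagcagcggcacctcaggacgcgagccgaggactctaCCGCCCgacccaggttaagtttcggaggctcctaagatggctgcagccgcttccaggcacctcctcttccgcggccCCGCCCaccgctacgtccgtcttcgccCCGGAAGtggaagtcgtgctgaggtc
SNRPB, chr20:2470790-2471039, minus strand: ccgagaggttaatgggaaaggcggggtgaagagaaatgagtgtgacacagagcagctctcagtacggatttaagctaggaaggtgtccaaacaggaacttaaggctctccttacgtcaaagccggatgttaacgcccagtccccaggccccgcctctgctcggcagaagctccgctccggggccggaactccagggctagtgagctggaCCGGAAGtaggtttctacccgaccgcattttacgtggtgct
HNRNPL, chr19:38852348-38852597, minus strand: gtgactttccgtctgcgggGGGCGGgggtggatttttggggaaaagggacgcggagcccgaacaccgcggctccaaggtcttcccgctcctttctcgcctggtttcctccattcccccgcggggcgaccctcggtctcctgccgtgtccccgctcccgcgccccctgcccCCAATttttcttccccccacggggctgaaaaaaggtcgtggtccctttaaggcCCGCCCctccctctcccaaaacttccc
HNRNPH3, chr10:68331443-68331692, plus strand: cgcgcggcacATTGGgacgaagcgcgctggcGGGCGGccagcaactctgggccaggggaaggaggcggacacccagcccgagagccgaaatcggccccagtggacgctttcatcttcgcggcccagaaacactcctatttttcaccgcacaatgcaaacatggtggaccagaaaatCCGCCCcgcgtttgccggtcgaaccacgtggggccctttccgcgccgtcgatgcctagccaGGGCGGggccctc
The ETS motif stands in the promoters of SF3B4 and SNRPB, and that of SF3B4 has SP1 matches as well. Those of HNRNPL and HNRNPH3 have NFY and SP1 matches. Of 62 members with an entry, searched over 300 bases that include 50 after the gene start, 33.9% held the ETS motif, against 14.4% of the 15384 promoters of all genes on the array. NFY was in 43.5%, against 36.1%, SP1 in 64.5%, against 58.9%, TATA in 9.68%, against 8.76%, NRF1 in 4.84%, against 4.21%, and CRE in 0 members, against 2.67%. The ETS motif was in 3 of the 10 promoters of genes that rose on the leading probe set, and in 4 of the 8 of genes that fell. For NFY these counts were 6 and 4, and for SP1 5 and 4. HNRNPA1, PRPF3, PRPF39, SF3B3, SNRPD1 and TRA2A had no entry.

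Among the 8 Sm core genes, whose proteins form the ring on the snRNA, SNRPB stood apart from the rest. SNRPB, which encodes the B and B′ proteins, had values of 7.67 and 7.99 in SupB15-MR and 12.03 in SupB15 on probe set 213175_s_at, and fell by 4.20 (SE 0.242, limma adjusted p = 0.0356). Its other probe set, 208821_at, had 8.66 and 9.06 in SupB15-MR and 11.56 in SupB15, a difference of -2.71 that was not called (limma adjusted p = 0.0673). On both probe sets each SupB15-MR array lay well below SupB15. SNRPN, its paralog, had values of 3.68 in both SupB15-MR arrays and 3.57 in SupB15 on its own probe set 240204_at, close to the filter value of 3.47. Its other probe sets on the array are shared with further genes and lay as high as 10.44 and 10.66 in SupB15-MR and 9.30 in SupB15. SNRPD3 rose by 1.06 (SE 0.0752, limma adjusted p = 0.0438), with 11.31 and 11.41 in SupB15-MR and 10.31 in SupB15. The leading probe sets of SNRPD1, SNRPD2, SNRPF and SNRPG differed by 0.01 to 0.43, and that of SNRPE by -0.37. SNRPE had a second probe set, 215450_at, at 11.13 and 11.11 in SupB15-MR and 8.17 in SupB15, which rose by 2.95 (SE 0.0156, limma adjusted p = 0.0027). In all, 2 of the 12 Sm core probe sets rose and 1 fell, where 13.1% of all probe sets tested rose and 9.71% fell. On centred arrays 1 rose and 2 fell (8.33% and 16.7%, against 14.2% and 16.9% of all). The median before centring was 0.09.

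Genes of the U1 and U2 snRNPs and of splice site recognition (16 genes, 39 probe sets) had as many rises as falls, 6 each. Over all probe sets tested, 13.1% rose and 9.71% fell. On centred arrays 7 rose and 10 fell (17.9% and 25.6%, against 14.2% and 16.9% of all). The median before centring was -0.08 over probe sets and -0.36 over leading probe sets. SF3B4, a subunit of SF3B, the part of the U2 snRNP that holds the branch site, had 5.89 and 5.62 in SupB15-MR and 10.17 in SupB15 on its only probe set. It fell by 4.41 (SE 0.208, limma adjusted p = 0.0291), the largest fall of any member probe set. That probe set, 209044_x_at, is of the type whose probes can also match other transcripts. Both SupB15-MR arrays lay far below SupB15.

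Other SF3 subunits did not share this size of difference. SF3A1, which bridges the U1 and U2 snRNPs, fell by 1.27 on its leading probe set, with 8.97 in both SupB15-MR arrays and 10.24 in SupB15 (limma adjusted p = 0.000645), while its other 3 probe sets differed by -0.31 to 0.94. Both probe sets of SF3A2 were lower in each SupB15-MR array, at -1.57 and -1.79, without being called (limma adjusted p = 0.0709 and 0.0698). SF3B2 went the other way on its leading probe set 200619_at, with 11.40 and 11.54 in SupB15-MR and 9.81 in SupB15, a rise of 1.66 (SE 0.105, limma adjusted p = 0.0389), whereas 1558230_at fell by 1.28 with 5.05 in both SupB15-MR arrays and 6.32 in SupB15. SF3B1, a branch site subunit often mutated in blood disease, differed by -0.69 to 1.82 over 5 probe sets, of which 201070_x_at rose (10.63 and 10.59 in SupB15-MR and 8.79 in SupB15) and the leading one differed by 0.02. SF3B3 differed by -0.08 and 0.39, SF3B5 by -0.72, SF3B6 by -0.46 on the leading probe set and SF3A3 by 0.59.

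SF1 recognises the branch site before the U2 snRNP does. Its leading probe set 208313_s_at had 11.43 and 11.46 in SupB15-MR and 10.21 in SupB15 and rose by 1.24 (SE 0.0197, limma adjusted p = 0.0092), and 210172_at rose by 1.35. Probe set 1555749_at had 7.53 and 8.01 in SupB15-MR and 4.42 in SupB15, a difference of 3.35 that was not called. All SF1 values were higher in both SupB15-MR arrays. U2AF2, which binds the polypyrimidine tract, went both ways. Probe set 218381_s_at had 7.59 in both SupB15-MR arrays and 8.90 in SupB15 and fell by 1.31 (limma adjusted p = 0.000645), while 229508_at and 214171_s_at rose by 1.16 and 1.46 and 218382_s_at differed by -0.20. Its partner U2AF1, which reads the AG at the intron end, differed by -0.26 on the leading probe set and fell by 1.12 on 232141_at. The U1 proteins SNRPA and SNRPC had differences of -0.97 and -1.01 that were not called (limma adjusted p = 0.0744 and 0.0585). Of the U2 proteins, SNRPB2 differed by -0.23, and SNRPA1 by 0.78 on its leading probe set, while 242146_at of SNRPA1 fell by 1.51.

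The PRPF genes (11 genes, 20 probe sets) had more falls than rises, with 3 probe sets up and 5 down by the test and a median of -0.27. Over all probe sets tested, 13.1% rose and 9.71% fell. On centred arrays 3 rose and 7 fell (15% and 35%, against 14.2% and 16.9% of all). On leading probe sets 4 of the 11 genes fell and 1 rose (9.81% and 10.6% of all genes did). With centring 5 leading probe sets fell and 1 rose (45.5% and 9.09%, against 17.3% and 10.8%). PRPF19, the ubiquitin ligase that gives its name to the complex activating the spliceosome, had 8.92 and 9.04 in SupB15-MR and 11.11 in SupB15 and fell by 2.13 (SE 0.0929, limma adjusted p = 0.0268). PRPF8, the scaffold of the catalytic core, had 8.96 in both SupB15-MR arrays and 10.49 in SupB15 and fell by 1.54 (limma adjusted p = 0.000645). In both genes SupB15 lay above each SupB15-MR array, and each has 1 probe set.

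PRPF31 belongs to the tri-snRNP, the particle that brings in U4, U5 and U6. It fell by 1.30 on 202408_s_at, with 8.41 in both SupB15-MR arrays and 9.71 in SupB15, and 202407_s_at had 6.14 and 6.51 in SupB15-MR and 8.44 in SupB15, a difference of -2.11 that was not called (limma adjusted p = 0.0801). PRPF3, another tri-snRNP protein, had 9.83 and 9.88 in SupB15-MR and 7.77 in SupB15 and rose by 2.08 (SE 0.041, limma adjusted p = 0.0116). PRPF4, which binds PRPF3, and PRPF6, which bridges the tri-snRNP, had no probe set called. PRPF18, a factor of the later catalytic step, fell by 1.12 on its leading probe set 221547_at (7.99 and 7.98 in SupB15-MR and 9.11 in SupB15, limma adjusted p = 0.0037). Its probe set 221546_at had 8.03 and 7.92 in SupB15-MR and 4.93 in SupB15 and rose by 3.04 (SE 0.0835, limma adjusted p = 0.0165). PRPF38A, of the complex before activation, rose by 1.76 on 223230_at and PRPF38B fell by 1.26 on 230270_at. Their leading probe sets differed by 0.80 and -0.24 and were not called. PRPF40B, a U1-associated protein, had 3.68 and 3.89 in SupB15-MR and 5.69 in SupB15, a difference of -1.90 just outside the call (limma adjusted p = 0.0517).

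**Figure D2:**
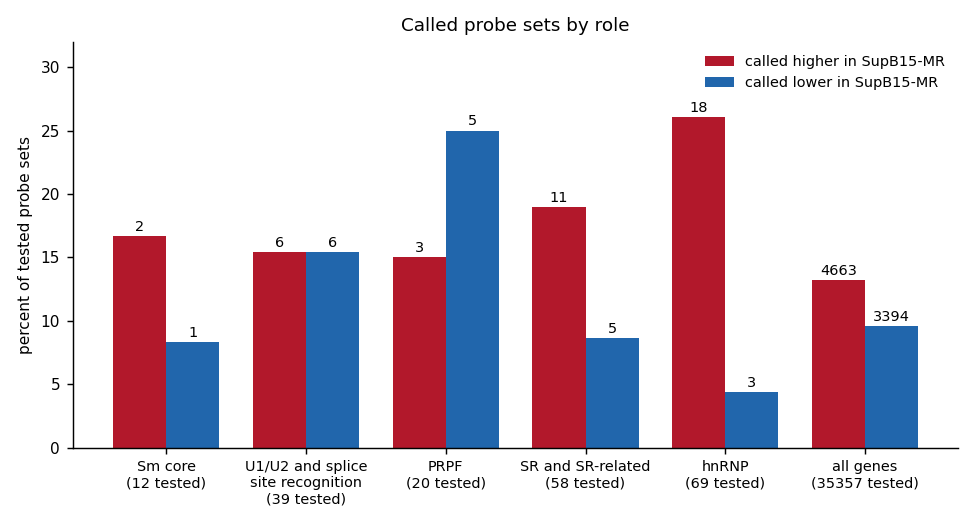
Percent of tested probe sets called higher (red) and lower (blue) in SupB15-MR with limma, for each role group and for all genes with a probe set of their own, with the counts above the bars. The hnRNP group had 18 rises and 3 falls of 69 probe sets tested, and the PRPF group 3 rises and 5 falls of 20.

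SR and SR-related genes (14 genes, 58 probe sets) had 11 rises and 5 falls, with a median of 0.14. Over all probe sets tested, 13.1% rose and 9.71% fell. On centred arrays 12 rose and 7 fell (20.7% and 12.1%, against 14.2% and 16.9% of all). On leading probe sets 3 rose and none fell by the test (10.6% and 9.81% of all genes did). With centring 1 leading probe set was called higher and 1 lower (7.14% each, against 10.8% and 17.3%). SRSF1, the founding SR protein, had 12.62 and 12.56 in SupB15-MR and 11.52 in SupB15 and rose by 1.07 (SE 0.0437, limma adjusted p = 0.0252). SRSF5 rose by 1.24 with 11.58 in both SupB15-MR arrays and 10.35 in SupB15, and SRSF8 by 1.19 with 9.59 in both SupB15-MR arrays and 8.40 in SupB15. On these 3 leading probe sets both SupB15-MR arrays lay above SupB15. Over all their probe sets SRSF1 differed by -0.78 to 1.29, SRSF8 by -0.54 to 1.19 and SRSF5 by 0.85 to 3.33. SRSF10, which acts as a repressor when dephosphorylated, fell by 1.55 on 206095_s_at (8.29 and 8.43 in SupB15-MR and 9.91 in SupB15, limma adjusted p = 0.0396). Its other probe sets differed by -0.54, on the leading one, to 0.34. The leading probe set of SRSF11 had 9.19 and 9.02 in SupB15-MR and 10.62 in SupB15, a difference of -1.52 that was not called (limma adjusted p = 0.0539). SRSF6 rose by 1.46 on 206108_s_at and differed by -0.36 on its leading probe set. SRSF12 had the widest gap between SupB15-MR arrays of any member probe set, 5.26 and 4.20 in SupB15-MR with 2.28 in SupB15.

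Probe sets moved apart in some SR genes. Of the 14 genes, 2 had a probe set 2-fold higher and another 2-fold lower in both SupB15-MR arrays. Over all genes this held for 8.11% of those with several probe sets and 13.4% of those with 4. SRSF3, the smallest SR protein, has its gene on chromosome 6, and its probe set 237485_at had 9.25 and 8.91 in SupB15-MR and 2.72 in SupB15. The SupB15 value lay below the filter value of 3.47. The rise was 6.36 as measured (SE 0.252, limma adjusted p = 0.0243) and at least 5.61 when taken from the filter value, while the other 5 probe sets of SRSF3 differed by -0.99 to 0.71. SRSF7, its closest relative, had no such rise. Its 4 probe sets differed by -1.18 to 0. The one that fell, 211439_at, had 3.68 in both SupB15-MR arrays, close to the filter value, and 4.86 in SupB15. The leading one differed by -0.01. For SRSF4, 241245_at had 8.28 and 8.41 in SupB15-MR and 3.50 in SupB15 and rose by 4.85 (SE 0.1, limma adjusted p = 0.0122), 242837_at had 7.47 and 7.53 in SupB15-MR and 9.00 in SupB15 and fell by 1.51 (SE 0.045, limma adjusted p = 0.0181), and the leading probe set differed by 0.05. One SRSF4 probe set was thus higher in both SupB15-MR arrays and another lower.

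TRA2A and TRA2B encode paralogous SR-like activators of exon inclusion. TRA2A rose on 227939_s_at (6.61 and 6.80 in SupB15-MR and 4.46 in SupB15, a difference of 2.24, limma adjusted p = 0.0386) and fell on 213593_s_at by 1.39 and on 213575_at by 1.22. TRA2B rose on 210180_s_at (10.62 and 10.74 in SupB15-MR and 8.17 in SupB15, a difference of 2.52, limma adjusted p = 0.0217) while its leading probe set differed by -0.52. SRRM2, a large scaffold of the spliceosome, was higher on all 4 probe sets, from 1.02 on the leading one (not called, limma adjusted p = 0.0564) to 4.80 on 1554671_a_at, which had 10.50 and 10.90 in SupB15-MR and 5.90 in SupB15 (SE 0.299, limma adjusted p = 0.0384). The probe sets of its partner SRRM1 differed by -0.70 and 0.92, and neither was called.

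The hnRNP genes (19 genes, 72 probe sets, 69 tested) had the most rises and the most probe sets of the role groups. With limma 18 probe sets rose and 3 fell, where 13.1% of all probe sets tested rose and 9.71% fell. On centred arrays 17 rose and 3 fell (24.6% and 4.35%, against 14.2% and 16.9% of all). The median before centring was 0.38. On leading probe sets 4 genes rose and 1 fell (10.6% and 9.81% of all genes did). Of the 19 differences, 13 were positive and 6 negative, against 8957 positive and 8358 negative over all genes. With centring 2 leading probe sets rose and 1 fell (10.5% and 5.26%, against 10.8% and 17.3%). HNRNPH3, which binds G-rich sequence, rose on 3 of its 4 probe sets by 2.91 to 3.54. Of the 3, 210588_x_at and 210110_x_at are of the type whose probes can also match other transcripts. The leading one, 210588_x_at, had 12.85 and 12.99 in SupB15-MR and 9.38 in SupB15 (SE 0.108, limma adjusted p = 0.0184). The remaining one, 208990_s_at, had 10.98 in both SupB15-MR arrays and 11.14 in SupB15, a difference of -0.16. HNRNPH3 was thus higher in both SupB15-MR arrays on all probe sets except that one.

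HNRNPL and HNRNPLL bind CA-rich sequence and are known in lymphocytes as regulators of PTPRC (CD45) exons. HNRNPL rose on both probe sets. On 202072_at it had 11.63 and 11.80 in SupB15-MR and 8.06 in SupB15, a difference of 3.66 (SE 0.131, limma adjusted p = 0.0218), and on 35201_at, the leading one, 11.61 and 11.73 in SupB15-MR and 8.82 in SupB15, a difference of 2.85 (SE 0.0912, limma adjusted p = 0.0195). HNRNPLL rose on its 3 tested probe sets. The leading one rose by 1.13, while 1554453_at (4.62 in both SupB15-MR arrays and 3.20 in SupB15) and 225386_s_at (6.42 in both SupB15-MR arrays and 3.46 in SupB15) had SupB15 values below the filter value, from which they rose by at least 1.15 and 2.95. The remaining HNRNPLL probe set lay below the filter value. Probe sets 1554453_at and 225386_s_at were tested only because their SupB15-MR values passed the filter. On centred arrays the leading HNRNPLL probe set differed by 0.94 and was not called.

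HNRNPA3 was the hnRNP gene that fell on the leading probe set, 211929_at, with 10.07 and 9.95 in SupB15-MR and 11.75 in SupB15, a difference of -1.74 (SE 0.0848, limma adjusted p = 0.0299), and 211930_at fell by 1.07. On its remaining probe set, 211932_at, HNRNPA3 had 10.27 and 10.21 in SupB15-MR and 10.21 in SupB15, a difference of 0.03. Its relatives HNRNPA1 and HNRNPA2B1 are abundant proteins that bind exonic silencers. HNRNPA1 had differences of 0.18, 0.26 and 0.91 with no call, and HNRNPA2B1 rose by 1.00 on the leading probe set (13.51 and 13.42 in SupB15-MR and 12.46 in SupB15, limma adjusted p = 0.0402, or 0.81 on centred arrays) and by 2.13 on 244131_at. HNRNPU, which binds the nuclear matrix and RNA, rose on 200593_s_at (12.64 and 12.58 in SupB15-MR and 10.30 in SupB15) and on 216855_s_at by 2.31 and 2.39, with limma adjusted p = 0.0121 and 0.0021, while its leading probe set differed by -0.04. HNRNPUL1, related to HNRNPU, differed by -0.47 and 0.21 with no call. HNRNPF differed by 0.82, and HNRNPK, HNRNPAB, HNRNPA0 and HNRNPR had no probe set called.

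Several hnRNP genes had 1 probe set far from the rest. HNRNPC, which binds uridine runs, had 8.15 in both SupB15-MR arrays and 4.21 in SupB15 on 1568941_a_at, a rise of 3.94 (limma adjusted p = 0.000645), and its other 6 probe sets differed by -0.80 to 0.40. HNRNPD, which binds AU-rich elements, had 8.08 and 8.06 in SupB15-MR and 4.27 in SupB15 on 227744_s_at, a rise of 3.80 (SE 0.0122, limma adjusted p = 0.0016), and its other 8 differed by 0.02 to 1.76. Both genes thus had 1 called probe set among many. HNRNPH1, close in sequence to HNRNPH3, rose by 3.11 on 213470_s_at (11.38 and 11.19 in SupB15-MR and 8.17 in SupB15, limma adjusted p = 0.0278) and by 1.90 on 213472_at. Its leading probe set 213619_at had 12.03 and 11.55 in SupB15-MR and 13.05 in SupB15, a difference of -1.25 that was not called (limma adjusted p = 0.179). HNRNPUL2 rose by 3.74 on 222264_at, with 9.59 in both SupB15-MR arrays and 5.85 in SupB15, and differed by 0.68 on its leading probe set. HNRNPM fell by 1.62 on 200072_s_at and differed by 0.78 on its leading probe set.

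**Figure D3:**
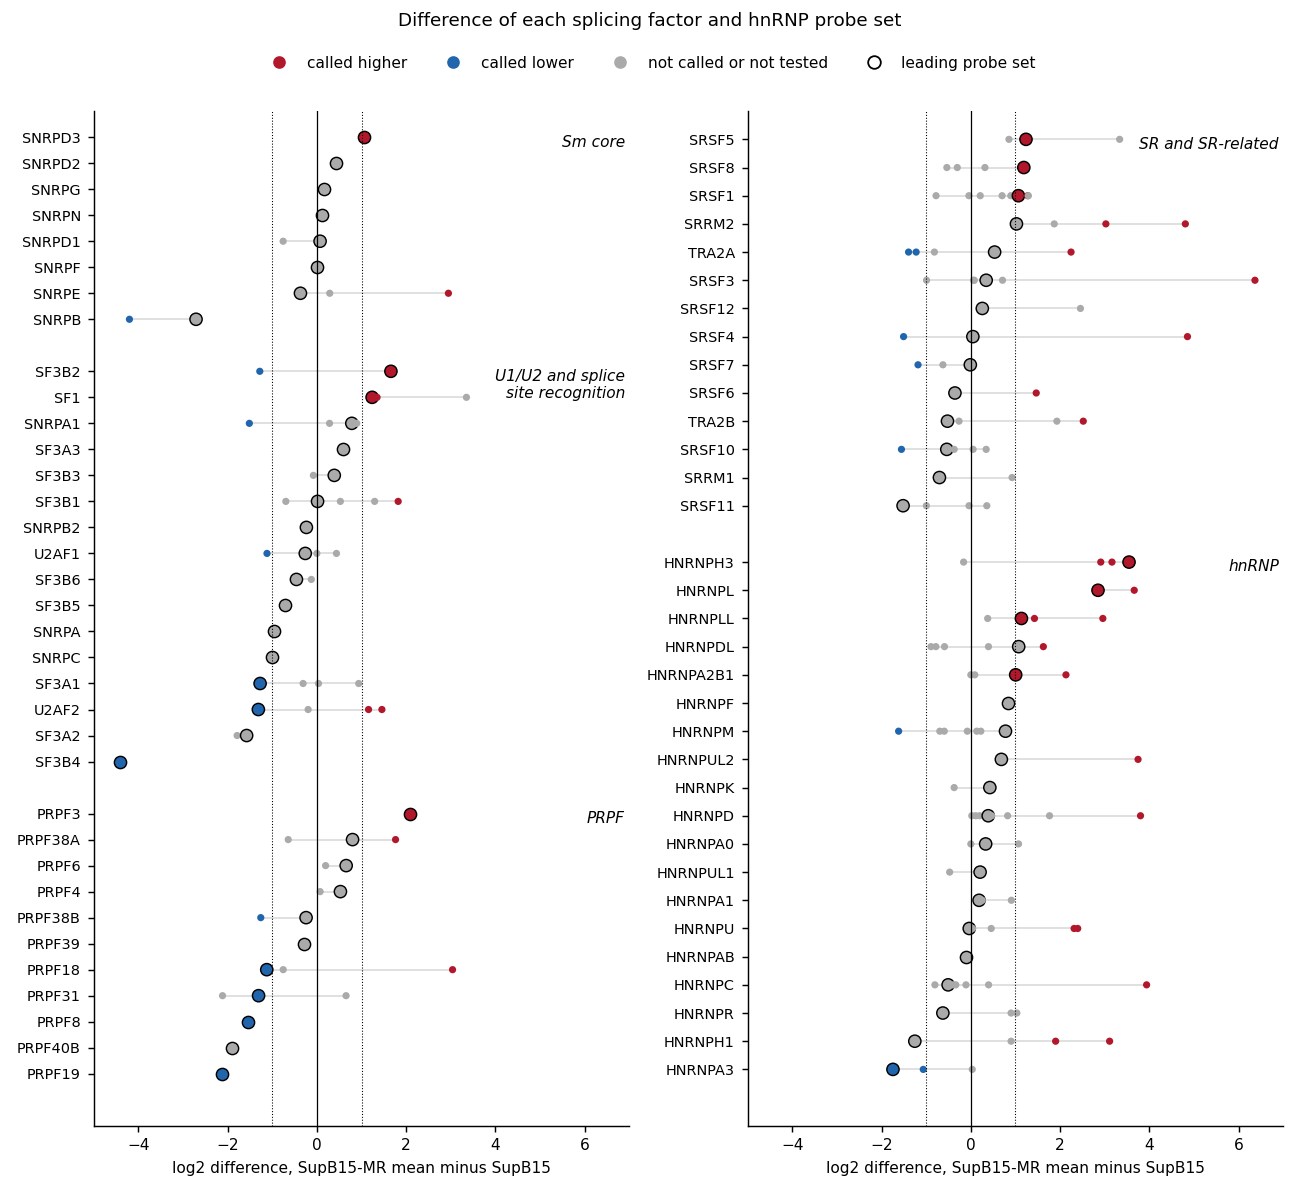
Log2 difference (SupB15-MR mean minus SupB15) of all 201 probe sets, 1 row per gene and grouped by role, with called probe sets in red (higher) or blue (lower), others in grey, and a black ring around the leading probe set. Dotted lines mark 2-fold, and SRSF3 has 1 probe set at 6.36, measured from a SupB15 value below the filter value, while its leading one lies at 0.34.

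The spread within genes was wide. Of the 51 members with several probe sets, 6 had at least 1 probe set that was 2-fold higher and another 2-fold lower in both SupB15-MR arrays, 11.8% against 8.11% of all genes with several. These were HNRNPH1, PRPF18, SF3B2, SRSF4, TRA2A and U2AF2. Since genes with more probe sets have more chances, the share was also taken by their number: 5.88% of members with 2 probe sets against 2.39% of all such genes, 10% against 6.98% with 3, 15.4% against 13.4% with 4, and 18.2% against 26.3% with 5 or more, where the members rest on 1, 1, 2 and 2 genes. The median span between the lowest and highest difference of a gene was 2.13, against 1.20 over all genes with several probe sets. By number of probe sets the median span was 0.81 against 0.68 with 2, 2.26 against 1.42 with 3, 2.40 against 1.89 with 4, and 2.52 against 2.64 with 5 or more. In 29 of the 68 members at least 1 probe set was 2-fold higher (42.6%, against 23.7% of all genes), in 22 at least 1 was 2-fold lower (32.4%, against 20.4%), and 23 had neither (33.8%, against 60.2%). Members had 2.96 probe sets each on average, against 2.08 over all genes.

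**Figure D4:**
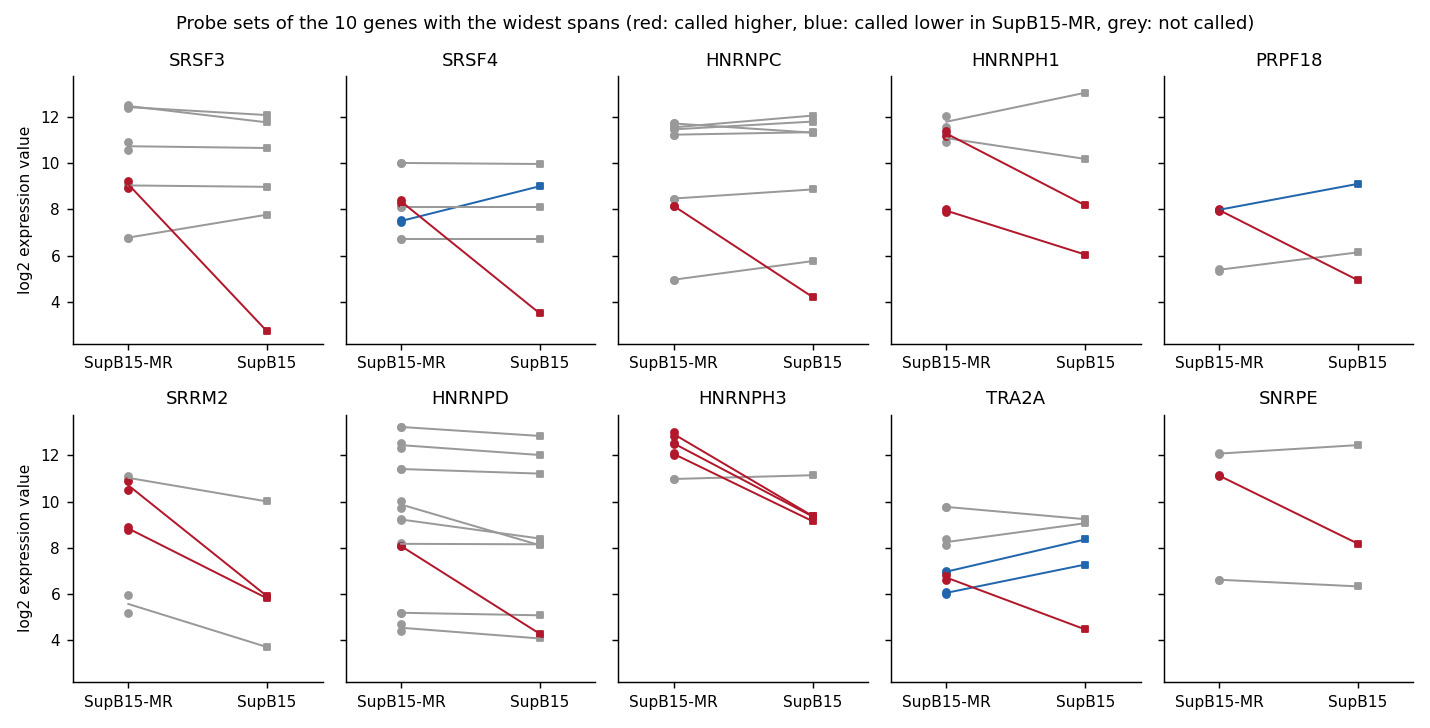
Log2 expression values of every probe set of the 10 genes with the widest spans among those with a call, with both SupB15-MR arrays as circles on the left, SupB15 as a square on the right and a line from the SupB15-MR mean to SupB15. In SRSF3, SRSF4, HNRNPC and HNRNPD 1 red line (called higher) drops steeply to SupB15 while most other probe sets run nearly level.

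Many of the largest rises were on probe sets with a low value in SupB15. Of the 30 member probe sets below the SupB15 median of 5.08, 16 were at least 2-fold higher in both SupB15-MR arrays (53.3%, against 16.1% of all probe sets below it) and 1 was lower (3.33%, against 2.64%). Of the 149 with a SupB15 value above 6.94, 22 were higher (14.8%, against 11.1% of all probe sets at that level) and 24 lower (16.1%, against 30.2%), with a median of 0.04 for the members and -0.37 for all. The SupB15 value enters both the class and the difference, so low classes lean to positive differences in any gene. A further comparison took probe sets below the SupB15 median whose gene had another probe set above 6.94. Both conditions use the SupB15 value, so this choice leans to positive differences too. Of 23 such member probe sets from 19 genes, 12 were at least 2-fold higher (52.2%), against 38.4% of 2912 from all genes, and 12.7% of 15926 low probe sets of genes with no such high probe set. Among the 12 were probe sets of SRSF3, SRSF4, HNRNPC, HNRNPD, PRPF18, SF1, TRA2A, TRA2B and U2AF2. Across the 68 genes, which are not independent replicates, Spearman's rho between gene length and the difference of the leading probe set was -0.02.

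**Figure D5:**
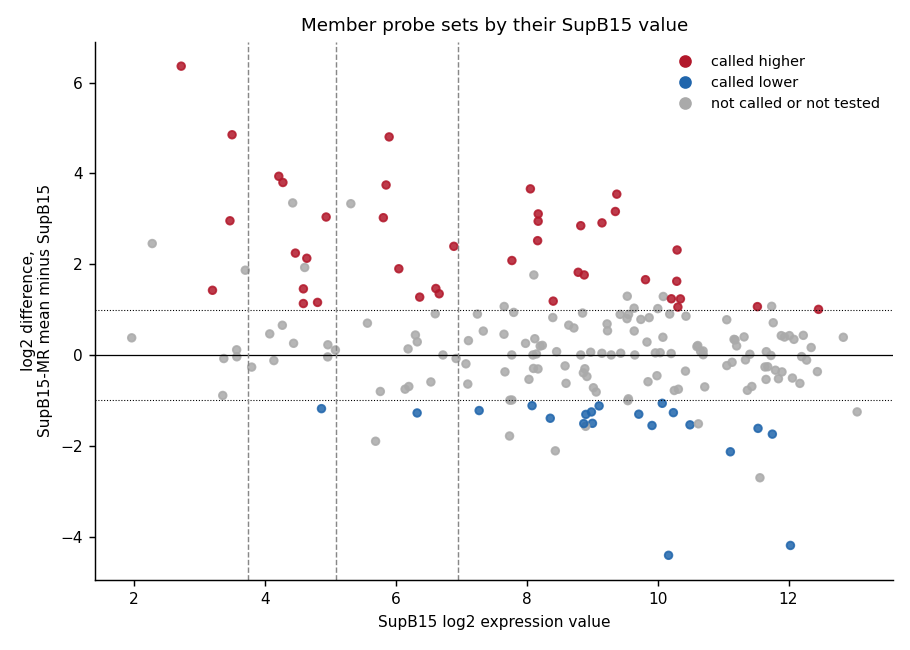
Log2 difference (SupB15-MR mean minus SupB15) of each member probe set against its SupB15 log2 value, with called probe sets in red (higher) or blue (lower) and others in grey. Dashed lines mark the quartiles of all SupB15 values (3.75, 5.08 and 6.94), dotted lines mark 2-fold, and the differences above 4 all have a SupB15 value below 6.

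Other genes of the splicing pathway had more rises than falls. On the leading probe set of 92 measured genes in 8 lists, 22 rose (10.6% of all genes did), 6 fell (against 9.81%) and 64 were not called, with a median of 0.21. On centred arrays 21 were called higher (22.8%, against 10.8% of all genes) and 14 lower (15.2%, against 17.3%). These shares of all genes are the background for each list that follows. The minor spliceosome, which removes a rare class of introns, had 4 rises of 7 genes and no fall (5 and 0 on centred arrays), with a median of 1.37. RNPC3, which binds U12 snRNA, had 9.07 and 9.11 in SupB15-MR and 6.93 in SupB15, a rise of 2.16 (SE 0.0309, limma adjusted p = 0.0081), and SNRNP35 rose by 1.88. Of 12 tri-snRNP and U1 genes 5 rose, led by SNU13 (10.83 and 10.88 in SupB15-MR and 8.27 in SupB15, a rise of 2.58) and SNRNP40 (1.69), and TXNL4A fell by 1.53, but on centred arrays 4 were called higher and 5 lower. None of the 7 LSm genes, whose ring sits on U6, was called, with a median of -0.56, and 2 were called lower on centred arrays.

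Of 17 genes of the PRP19 complex and catalytic steps, 4 rose, led by SLU7 (1.35, with -1.11 on its other probe set) and CTNNBL1 (1.34), and the helicase gene DHX15 fell by 1.45. In the exon junction complex, deposited on spliced mRNA, RBM8A rose by 1.59 and PNN by 1.11 among 7 genes, though each also had a probe set 2-fold lower (-1.09 and -1.50). On centred arrays 1 gene of this complex was called higher and 0 lower. Of the 7 SR protein kinase genes, SRPK2 alone was called, with 9.56 and 9.47 in SupB15-MR and 7.91 in SupB15, a rise of 1.61 (on centred arrays 1 kinase gene was called higher and 1 lower). Among 12 snRNP assembly genes GEMIN2 and GEMIN8 rose by 2.16 and 1.22 and STRAP fell by 1.18, while its other probe set differed by 3.56. Among 23 other splicing regulators, SON (1.66) and TIA1 (1.56) led 4 rises and ELAVL1 (-1.83) and MBNL2 (-1.82) led 3 falls (3 and 4 on centred arrays). Of these, TIA1 had 3 of 7 probe sets 2-fold lower, MBNL2 had 2 of 5 2-fold higher, and 1 probe set of ELAVL1 stood at 1.81.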

How the data were processed

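Total RNA was amplified, labelled with the NuGEN Ovation system and hybridised to Affymetrix arrays. The authors summarised probe sets with RMA, and deposited 1 log2 expression value for each. The methods give the array a pair of names, and the 54675 probe sets are those of HG133plus2. Which arrays were normalised together is not given in the sources used here. Arrays of SupB15 cells in CM were not analysed here. Genes came from the platform table. Of all probe sets, 41097 name 1 gene, 1801 several and 11777 none.

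Of all probe sets, 8641 with no value above the lowest 20 percent (a log2 value of 3.47) were dropped, and the remaining 46034 were fitted with limma 3.58.1 in R 4.3.3 (SupB15-MR against SupB15, no covariates, 1 residual degree of freedom, Benjamini-Hochberg adjustment over all). A probe set was called at 2-fold or more with adjusted p ≤ 0.05. Probe sets identical in both SupB15-MR arrays kept a residual spread of 0, which sets a small prior SD (0.00102). The fit was tested on simulated data. Alternatives were no filter, median centring, a prior from differing probe sets, a plain ANOVA on the same arrays, each SupB15-MR array left out, and other rules for the leading probe set.

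The members and lists were chosen with earlier results of these data known. Named genes were the 10 largest called rises and falls on leading probe sets, the 10 widest spans, paralog pairs, the extremes of each role group and the largest calls of each other list. The pair HNRNPH1 and HNRNPH2 was void because HNRNPH2 has no probe set of its own. Other members were named to complete a family, after their values were seen. Promoters came from RefSeq (GRCh38.p14). The motifs, their letters and the promoters they were set against were settled after first counts had been seen, as was the comparison of low probe sets in genes with a high one.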

Additional observations from a re-analysis of the deposited data

How the results depend on the processing

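Calls rested on 1 SupB15 array and on the spread between the SupB15-MR arrays, whose identical values shape the variance prior. A plain ANOVA on these 3 arrays called 0 members higher and 0 lower of 131 that it could test. It called 0 of all 27745 probe sets tested, so its 0 is not particular to the members. Before adjustment, at the same thresholds, it had 30 members higher and 10 lower, against 40 and 20 called by limma with adjustment. The comparison in the study also took in SupB15 cells in CM, so this ANOVA does not repeat it. Under the other alternatives the counts of called members were 39 to 52 higher and 20 to 29 lower, and the counts of 2-fold members 42 to 53 higher and 27 to 32 lower. The median over member probe sets, 0.164, was -0.0275 after median centring and 0.164 to 0.2058 with 1 SupB15-MR array left out. The median over leading probe sets, 0.059, was -0.1325 after centring, 0.059 to 0.0697 with 1 array left out, 0.0932 with the probe set highest over 3 arrays, -0.0744 with the one highest in SupB15, and 0.1779 as the mean over all probe sets of a gene. The medians therefore have no settled sign. Of 26 named probe sets, SRSF4 201696_at, not called, changed sign on centring (0.05 and -0.15), and no called one did. Centring took HNRNPLL, SNRPD3, SRSF1 and SRSF8 under 2-fold, and the prior from differing probe sets added calls for HNRNPH1 (213619_at) and SRRM2 (207435_s_at). No paired analysis was possible because SupB15 has 1 array and the replicate numbers are shared with no other group.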

Other observations

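Some family genes have only probe sets that the platform table also gives to another gene, and these were left out of the counts. SRSF2, an SR protein, had 3. On 200753_x_at it had 9.78 and 9.72 in SupB15-MR and 11.30 in SupB15, a fall of 1.55 (SE 0.0521, limma adjusted p = 0.0205), while 200754_x_at and 214882_s_at differed by 0.20 and 0.59. SRSF9 rose by 1.13 on 200044_at and differed by 0.10 on 201698_s_at. HNRNPH2, the paralog of HNRNPH1, had 9.03 and 8.91 in SupB15-MR and 9.03 in SupB15.

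Shared probe sets of member genes varied as well. HNRNPUL2 had 10.54 and 10.32 in SupB15-MR and 5.48 in SupB15 on 66053_at, a rise of 4.95 (SE 0.164, limma adjusted p = 0.0201). HNRNPA3 rose by 1.06 on 211931_s_at, where its own leading probe set fell. The 2 probe sets that HNRNPA1 shares differed by -0.05 and -0.58, and neither was called. SNRPN shares 11. On 206042_x_at it had 10.44 and 10.66 in SupB15-MR and 9.30 in SupB15, a difference of 1.24, and on 201522_x_at 9.18 and 9.50 in SupB15-MR and 10.13 in SupB15, a difference of -0.80, neither called. Of the rest, 1559343_at (3.79), 1559545_at (3.73) and 241834_at (1.21) rose and 221974_at (-1.79) fell.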
